A study of Homo sapiens with 24 samples.

Results

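The transcripts described here encode the EGFR family of receptors and their ligands: 3 receptors (EGFR, ERBB2, ERBB3) and 6 EGF-type ligands (AREG, EREG, HBEGF, TGFA, BTC, EPGN). They were chosen by name, as the rows of the count table with these symbols, and are 9 of 35993 genes. These members and the gene lists below were chosen with earlier results of these data known, so counts of called genes among them are a description. RNA was measured in 24 libraries of J82 and RT-112, both established human bladder cancer cell lines. Each line was studied as 4 groups of 3 biological replicates: the parental line and lines named CD44 Low, CD44 High and CD44v6, derived from it and described by the submitters as having low CD44, high CD44 or high CD44v6 receptor expression. How those lines were derived is not given in the sources used here, and no treatment, time or genetic change is listed for any group. Each group is 1 established line sampled 3 times, so its p-values measure the spread between replicates of that line and not between independently derived lines.

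EGFR, ERBB2 and ERBB3 are cell-surface tyrosine kinases that signal as pairs. AREG, TGFA, EPGN, HBEGF, EREG and BTC are made as membrane-bound precursors, are shed by metalloproteases, and bind EGFR. ERBB2 has no known soluble ligand and serves as a partner for the others, and ERBB3 has a weak kinase and is bound by the neuregulins. In the urothelium these receptors are known for their part in growth and repair, and they are often studied in bladder cancer.

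In RT-112, CD44 High cells had higher levels of EGFR and of the ligands AREG, HBEGF and TGFA than CD44 Low cells. Their levels of ERBB2 and ERBB3 were lower. These were 6 of 7 tested members, where 16% of all genes tested were called. The EGFR, AREG and HBEGF calls held with any 1 library left out, but those of ERBB2, ERBB3 and TGFA did not. AREG had the largest difference, 3.56-fold (log2 1.83, SE 0.20, 3 against 3 libraries). In J82 2 of 8 tested members were called, where 15.7% of all genes tested were: ERBB3 (1.51-fold higher in CD44 High cells) and EREG. EGFR differed there by less than its SE, HBEGF was higher by 0.62 (SE 0.35) and did not pass, and AREG, TGFA and EREG had at most 64 counts in any library. In the main fit the changes of EGFR, AREG, HBEGF and TGFA were not shown to differ between the lines (adjusted p 0.0521, 0.795, 0.856 and 0.0668). EGFR and TGFA passed that test under some other settings. ERBB3 went in opposite directions in the 2 lines, and that difference passed its own test. No member was called between CD44v6 and CD44 High cells in either line, where 0% of all genes tested were.

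CD44, the hyaluronan receptor that names the groups, was checked first. In J82 its level was 489, 396 and 448 CPM (its share of a library's counts, on the scale set by TMM factors) in the parental libraries, 309, 273 and 254 in CD44 Low, 709, 764 and 707 in CD44 High, and 714, 1072 and 612 in CD44v6. In RT-112 it was 310, 347 and 293 CPM in parental, 120, 151 and 152 in CD44 Low, 417, 351 and 491 in CD44 High, and 516, 449 and 378 in CD44v6. CD44 Low libraries were below every other library of their line, as labelled. Counts per gene do not separate the v6 form, so they do not check the CD44v6 label. In J82 CD44v6 replicate 2 stood apart, with the highest CD44, EGFR and ERBB2 of its line. Libraries held 16752825 to 24419670 counts, and no 2 replicates were alike within counting noise (chi-square per degree of freedom 6.03 to 58.7 over 24 pairs). Of 11 urothelial and other epithelial markers, 7 had counts in J82, where KRT5, KRT13, KRT20 and UPK2 were at 0 in every library, and all 11 had counts in RT-112. DCN, a fibroblast marker, was at 0 in every library, and 4 endothelial markers summed to at most 4.19 CPM.

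Promoters are shown for EGFR, AREG, HBEGF and TGFA because these transcripts were higher together in RT-112 CD44 High cells. Each sequence runs from 250 bases before to 50 bases after the RefSeq gene start (GRCh38.p14), 5′ to 3′ on the gene's strand: AREG chr4:74444886-74445185 (+), HBEGF chr5:140346554-140346853 (−), TGFA chr2:70553777-70554076 (−) and EGFR chr7:55018767-55019066 (+). Capitals mark a match to 1 of 4 motifs searched on both strands.
AREG: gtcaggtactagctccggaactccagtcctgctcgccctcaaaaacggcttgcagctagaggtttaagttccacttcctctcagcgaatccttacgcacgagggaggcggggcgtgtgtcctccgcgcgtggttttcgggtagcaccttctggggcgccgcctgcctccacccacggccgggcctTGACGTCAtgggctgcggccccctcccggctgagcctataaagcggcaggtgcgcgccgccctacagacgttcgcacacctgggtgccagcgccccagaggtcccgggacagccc
HBEGF: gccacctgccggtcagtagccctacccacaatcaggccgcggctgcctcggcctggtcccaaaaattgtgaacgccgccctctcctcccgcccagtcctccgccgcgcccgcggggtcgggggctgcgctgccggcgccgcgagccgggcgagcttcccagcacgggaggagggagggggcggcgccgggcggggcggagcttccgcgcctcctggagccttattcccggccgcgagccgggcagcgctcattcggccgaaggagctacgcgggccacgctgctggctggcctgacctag
TGFA: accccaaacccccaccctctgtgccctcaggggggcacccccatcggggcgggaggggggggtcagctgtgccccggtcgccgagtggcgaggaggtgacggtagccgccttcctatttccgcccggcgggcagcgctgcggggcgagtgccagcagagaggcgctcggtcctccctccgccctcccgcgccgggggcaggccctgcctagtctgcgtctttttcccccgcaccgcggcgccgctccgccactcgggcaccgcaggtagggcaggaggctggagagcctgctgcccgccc
EGFR: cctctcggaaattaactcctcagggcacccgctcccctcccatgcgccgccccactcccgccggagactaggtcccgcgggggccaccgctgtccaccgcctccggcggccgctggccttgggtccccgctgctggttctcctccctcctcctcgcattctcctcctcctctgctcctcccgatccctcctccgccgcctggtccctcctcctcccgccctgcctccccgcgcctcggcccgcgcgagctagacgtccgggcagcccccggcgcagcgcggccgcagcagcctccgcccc
AREG holds the cyclic AMP response element TGACGTCA, starting 65 bases upstream of the start. This motif is in 1.85% of the 35116 promoters of the same length. HBEGF, TGFA and EGFR hold none of the motifs searched, which were that one, TGAGTCA (AP-1, 4.95% of promoters), GGAATG (TEAD, 14%) and CCGGAAGT (ETS, 4.14%). The GC content of these windows was 66.3% in AREG and 75 to 75.3% in the other 3. It was 63% in BTC, 60.7% in ERBB2, 57.7% in EREG and 37.7% in EPGN, and that of all promoters was not computed. Among the other members, ERBB2 (chr17:39687844-39688143, +) holds CCGGAAGT on both strands, starting 27 and 14 bases upstream, and EREG (chr4:74364895-74365194, +) holds GGAATG 175 bases upstream; these matches did not overlap. BTC and EPGN hold none, and ERBB3 was not examined. EREG, AREG, BTC and EPGN lie together on chromosome 4.

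The receptors come first. EGFR, the receptor that binds all 6 ligands, was at 157, 172 and 157 CPM in RT-112 parental libraries, 105, 112 and 143 in CD44 Low, 226, 195 and 201 in CD44 High, and 201, 206 and 186 in CD44v6. Every CD44 High and CD44v6 library was above every parental library, and every CD44 Low library was below them. In J82 the values were 153, 140 and 158 CPM in parental, 243, 182 and 151 in CD44 Low, 183, 190 and 182 in CD44 High, and 202, 338 and 156 in CD44v6. Here the ranges of CD44 Low and CD44v6 were wide and overlapped those of the other groups. In order of mean level over the 8 groups, J82 CD44v6 was highest (232 ± 94.8 CPM, SD, n = 3) and RT-112 CD44 Low lowest (120 ± 20.6). Along that order the only neighbours whose libraries did not overlap were J82 CD44 High (185 ± 4.30) and RT-112 parental (162 ± 8.92).

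ERBB2, the ligandless partner, was at 76.9, 87.9 and 81.3 CPM in RT-112 parental libraries, 106, 99.5 and 92.7 in CD44 Low, 79.8, 88.8 and 72.1 in CD44 High, and 78.4, 84.0 and 80.5 in CD44v6. All 3 CD44 Low libraries were above all other RT-112 libraries. In J82 it was 34.8, 31.8 and 32.6 CPM in parental, 39.4, 39.3 and 34.1 in CD44 Low, 35.4, 33.2 and 34.4 in CD44 High, and 31.0, 46.0 and 29.8 in CD44v6. Those 4 groups overlapped, and all 12 J82 libraries were below all 12 RT-112 libraries.

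ERBB3, the neuregulin receptor, was at 73.4, 81.0 and 83.5 CPM in RT-112 parental libraries, 121, 104 and 102 in CD44 Low, 67.7, 89.2 and 78.5 in CD44 High, and 82.8, 76.1 and 84.3 in CD44v6. CD44 Low was the highest group of RT-112, with no overlap. In J82 ERBB3 was 12.1, 13.1 and 12.5 CPM in parental, 7.69, 9.61 and 8.70 in CD44 Low, 13.6, 13.5 and 12 in CD44 High, and 12.9, 10.3 and 12.5 in CD44v6. CD44 Low was the lowest group of J82, again with no overlap. Over the 8 groups the order of means ran from RT-112 CD44 Low (109 ± 10.6 CPM) to J82 CD44 Low (8.67 ± 0.963), so the CD44 Low groups stood at its 2 ends. The other RT-112 groups (78.5 to 81.1 CPM) overlapped each other, as did the other J82 groups (11.9 to 13).

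Among the ligands, AREG (amphiregulin, an EGFR ligand of epithelial cells) was at 12.3, 12.3 and 13.2 CPM in RT-112 parental libraries, 5.06, 7.38 and 6.99 in CD44 Low, 23.2, 17.2 and 26.8 in CD44 High, and 32.3, 24.4 and 22.7 in CD44v6. The parental, CD44 Low and combined CD44 High and CD44v6 ranges were separate, with only the last pair overlapping. In J82 AREG had 0, 0 and 3 counts in parental, 0, 0 and 4 in CD44 Low, 0, 34 and 0 in CD44 High, and 0, 16 and 13 in CD44v6. A count of 3, the limit that a count of 0 allows, was 0.129 to 0.178 CPM in these libraries. AREG was thus at or under that limit in 8 of 12 J82 libraries, the exceptions being CD44 Low replicate 3, CD44 High replicate 2 and CD44v6 replicates 2 and 3. RefSeq lists AREGB as a synonym of AREG, and the GRCh37 build named in the submitters' processing notes holds a near-identical copy under that name. How reads were split between the copies is not known, so the level of AREG is uncertain.

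HBEGF (heparin-binding EGF-like growth factor) was at 29.8, 20.2 and 20.7 CPM in RT-112 parental libraries, 29.6, 32.6 and 22.8 in CD44 Low, 49.9, 60.4 and 41.2 in CD44 High, and 63.2, 46.8 and 59.8 in CD44v6. CD44 High and CD44v6 overlapped each other and lay above all parental and CD44 Low libraries, which overlapped. In J82 it was 6.76, 9.31 and 6.70 CPM in parental, 6.57, 16.3 and 12.2 in CD44 Low, 10.1, 25.6 and 18.2 in CD44 High, and 9.21, 17.6 and 14 in CD44v6. All CD44 High libraries were above all parental ones, and the derived groups overlapped each other. Replicate 1 had the lowest value and replicate 2 the highest in each derived J82 group.

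TGFA (transforming growth factor alpha) was at 19.6, 22.6 and 23.6 CPM in RT-112 parental libraries, 26.0, 17.4 and 18.4 in CD44 Low, 29.7, 26.8 and 26.8 in CD44 High, and 26.0, 27.5 and 29.1 in CD44v6. CD44 High was above both parental and CD44 Low without overlap, although CD44 Low replicate 1 came close. In J82 it had 4, 8 and 2 counts in parental, 6, 2 and 2 in CD44 Low, 16, 19 and 9 in CD44 High, and 9, 14 and 11 in CD44v6.

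The remaining ligands are EREG, BTC and EPGN. EREG (epiregulin) had 16, 18 and 4 counts in J82 parental libraries, 7, 13 and 5 in CD44 Low, 47, 64 and 16 in CD44 High, and 34, 23 and 9 in CD44v6, against 0 to 6 counts in all 12 RT-112 libraries. It was therefore too low in RT-112 to be tested. BTC (betacellulin) was at 3.38, 2.68 and 4.03 CPM in J82 parental libraries, 2.005, 3.83 and 3.03 in CD44 Low, 4.82, 3.82 and 4.33 in CD44 High, and 2.57, 2.80 and 2.41 in CD44v6. In RT-112 BTC had 4 to 11 counts in 10 of 12 libraries, and CD44 Low held the 2 extremes, 43 counts in replicate 1 and 0 in replicate 3. EPGN (epigen) had no count in any J82 library. In RT-112 it had 10, 23 and 18 counts in parental, 28, 10 and 6 in CD44 Low, 18, 16 and 52 in CD44 High, and 37, 35 and 16 in CD44v6, and all 4 groups overlapped.

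**Figure D1:**
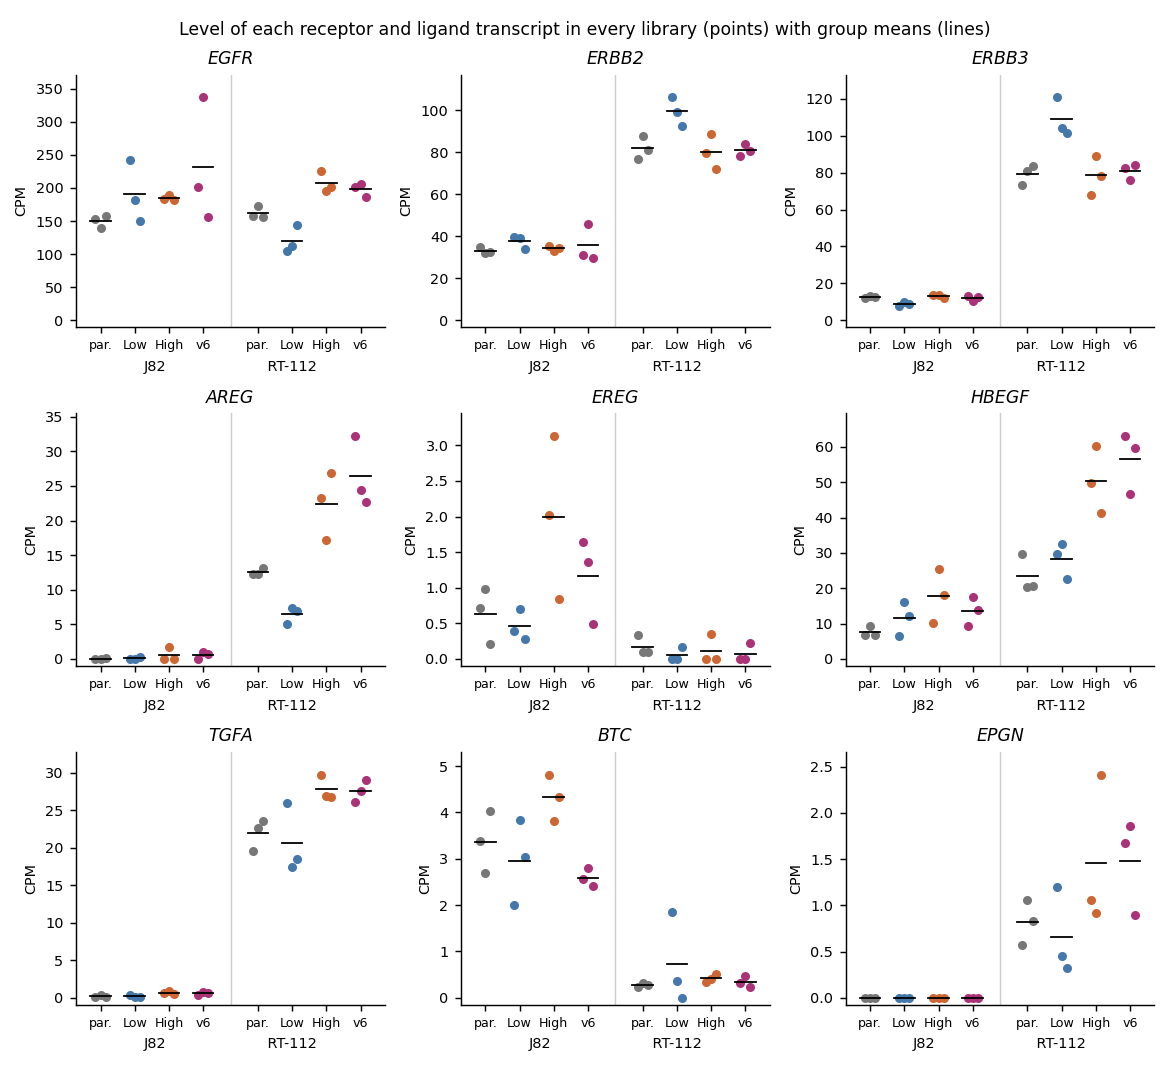
Level of the 9 transcripts in CPM (vertical axes, linear, a scale of its own in each panel) in every library (points) of the parental (par.), CD44 Low, CD44 High and CD44v6 groups of J82 and RT-112, with lines at the mean of 3 libraries. In RT-112 AREG and HBEGF sit highest in CD44 High and CD44v6, ERBB2 and ERBB3 sit highest in CD44 Low, and AREG, TGFA and EPGN are near or at 0 in J82.

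Tests used edgeR's quasi-likelihood F-test on the counts, with Benjamini-Hochberg adjustment over all genes of the fit. A change was called at an adjusted p under 0.05. After the filter on low counts, 8 members were tested in J82 (all but EPGN) and 7 in RT-112 (all but EREG and BTC). In bulk RNA, fewer cells of a type and less RNA per cell cannot be told apart.

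CD44 High against CD44 Low was the widest contrast in CD44 among the comparisons in each line, apart from CD44v6 against CD44 Low. In RT-112 6 of the 7 tested members were called, where 16% of all 15645 genes tested were. Among the receptors EGFR rose by 0.82 on the log2 scale (SE 0.12, adjusted p = 0.000912), while ERBB2 fell by 0.28 (SE 0.09, adjusted p = 0.0437) and ERBB3 fell by 0.44 (SE 0.10, adjusted p = 0.0106). All 3 ligands called were higher: AREG by 1.83 (SE 0.20, adjusted p = 0.000161), HBEGF by 0.86 (SE 0.19, adjusted p = 0.00851) and TGFA by 0.46 (SE 0.14, adjusted p = 0.0386). EPGN, at 1.18 (SE 0.53), did not pass (adjusted p = 0.153). The median change of the 7 members was 0.82, against 0.02 over all genes tested. The EGFR, AREG and HBEGF calls held with any 1 of the 6 libraries left out. The ERBB3 call was lost without CD44 Low replicate 1 (adjusted p = 0.0521), and the TGFA call without CD44 Low replicate 2 (0.144), CD44 Low replicate 3 (0.109) or CD44 High replicate 1 (0.130). The ERBB2 call was lost without CD44 Low replicate 1 (0.150), CD44 Low replicate 2 (0.0974), CD44 High replicate 1 (0.09999) or CD44 High replicate 3 (0.109). Other settings ended some of these calls too. With upper-quartile scaling ERBB2 had an adjusted p of 0.0552, and with no filter on low counts TGFA had 0.0799. In a fit of only the 6 libraries compared, ERBB2, ERBB3 and TGFA were lost (0.140, 0.0562 and 0.111), and in a fit of all 24 libraries ERBB2, TGFA and HBEGF were (0.0997, 0.161 and 0.0685).

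In J82 the same comparison called 2 of 8 members, where 15.7% of all 15951 genes tested were called. ERBB3 rose by 0.60 (SE 0.14, adjusted p = 0.0102), and this call held with any 1 library left out. EREG rose by 2.11 (SE 0.67, adjusted p = 0.0488), with no overlap between the groups at 5 to 13 against 16 to 64 counts. The EREG call rested on nearly all of the libraries: without CD44 Low replicate 1, 2 or 3 its adjusted p was 0.139, 0.0611 and 0.123, and without CD44 High replicate 1 or 2 it was 0.105 and 0.184. TGFA was also separate between the groups but did not pass (log2 1.88, SE 0.69, adjusted p = 0.0842), and neither did HBEGF (0.62, SE 0.35, adjusted p = 0.261) or BTC (0.55, SE 0.26, adjusted p = 0.167). EGFR was at −0.05 (SE 0.23, adjusted p = 0.920) and ERBB2 at −0.13 (SE 0.14, adjusted p = 0.601). AREG, with counts in 1 of 3 libraries of each group, did not pass (adjusted p = 0.341). The median of the 8 members was 0.61, against −0.02 over all genes tested.

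**Figure D2:**
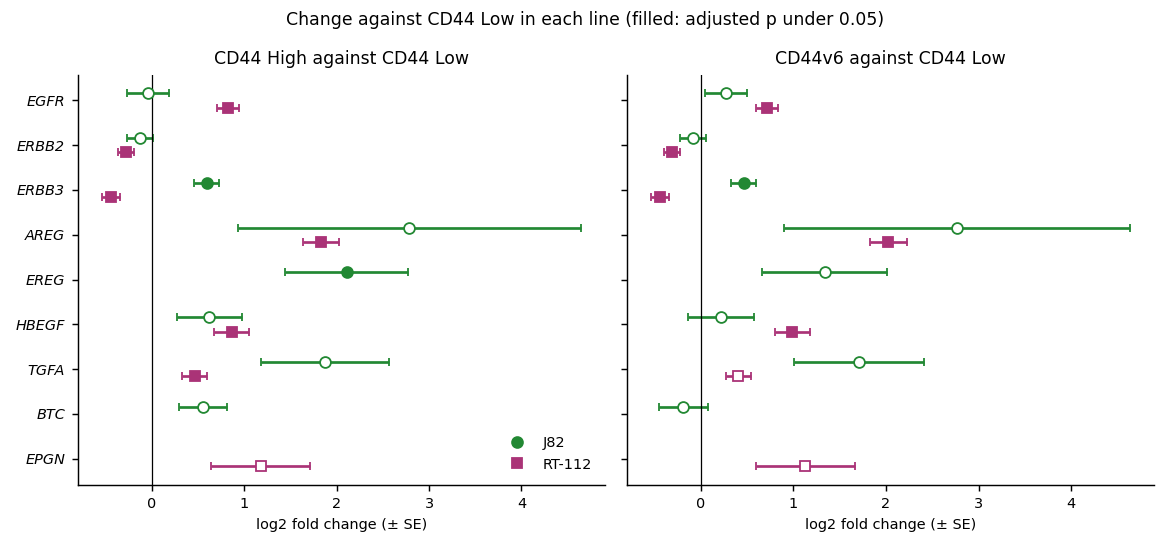
Log2 fold change (horizontal axes) with its SE for each member in CD44 High (left) and CD44v6 (right) against CD44 Low, from 3 libraries a group in J82 (circles) and RT-112 (squares), filled where the adjusted p was under 0.05. ERBB3 lies right of 0 in J82 and left of 0 in RT-112 in both panels, and AREG and HBEGF are filled only in RT-112. Both panels share the CD44 Low libraries, and members too low to test have no symbol.

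CD44v6 against CD44 Low shares the CD44 Low libraries with that comparison, so its values stand beside it and are not a second support. In RT-112 5 of 7 members were called, where 16% of all genes tested were. AREG was higher by 2.03 (4.07-fold, SE 0.20, adjusted p = 0.000104), HBEGF by 0.99 (SE 0.19, adjusted p = 0.00486) and EGFR by 0.71 (SE 0.12, adjusted p = 0.00231). ERBB2 fell by 0.31 (adjusted p = 0.0311) and ERBB3 fell by 0.43 (adjusted p = 0.0130), and TGFA at 0.41 did not pass (SE 0.14, adjusted p = 0.0613). The calls for EGFR, AREG and HBEGF held with any 1 library left out, whereas ERBB3 was lost without CD44 Low replicate 1 (0.0596) or CD44v6 replicate 2 (0.0527). ERBB2 kept its call only without CD44 Low replicate 3, and without CD44 Low replicate 1 or 2 its adjusted p was 0.118 and 0.0750, and without CD44v6 replicate 1, 2 or 3 it was 0.0891, 0.0615 and 0.106. Without CD44 Low replicate 1 TGFA passed (0.61, adjusted p = 0.0123). In J82 1 of 8 members was called, where 9.58% of all genes tested were. That was ERBB3, higher by 0.47 (SE 0.14, adjusted p = 0.0498). Its call was lost without CD44 Low replicate 1, 2 or 3 (0.138, 0.0553 and 0.0912) and without CD44v6 replicate 1 or 3 (0.138 and 0.106).

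The summed epithelial markers moved with ERBB3 in both lines. The mesenchymal sum was lower in CD44 Low than in CD44 High in both lines and the fibroblast sum higher, so each went with ERBB3 in 1 line only. A sum is weighted to its most abundant markers. The summed CPM of the 11 epithelial markers was 17174 to 19931 in RT-112 CD44 Low, 13256 to 14744 in CD44 High and 14950 to 15771 in CD44v6, so it was higher in CD44 Low, like ERBB3. In J82, with 7 of the 11 markers present, it was 6447 to 7856 in CD44 Low, 8709 to 10594 in CD44 High and 8775 to 9361 in CD44v6, so it was lower in CD44 Low, again like ERBB3. The 4 mesenchymal markers, all with counts, summed to 206 to 243 CPM in RT-112 CD44 Low, 418 to 768 in CD44 High and 524 to 899 in CD44v6. In J82 they summed to 871 to 1114 CPM in CD44 Low, 1201 to 1381 in CD44 High and 1108 to 1438 in CD44v6. The 5 fibroblast markers, with only DCN at 0 in J82, summed to 104 to 148 CPM in J82 CD44 Low, 49.1 to 57.0 in CD44 High and 40.6 to 72.8 in CD44v6. In the same 3 groups of RT-112 DCN, COL1A2 and PDGFRB were at 0, so only 2 of the 5 had counts. Those 2 summed to 215 to 272 CPM in CD44 Low, 120 to 184 in CD44 High and 127 to 183 in CD44v6. The sum was higher in CD44 Low in both lines, from 4 markers in J82 and 2 in RT-112. The 5 leukocyte markers summed to 76.9 to 121 CPM in J82 CD44 Low, 141 to 216 in CD44 High and 104 to 184 in CD44v6, and to 7.52 to 14.1 in the same 3 groups of RT-112. Of these 5, 1 or 2 had counts in those J82 groups and 2 or 3 in those of RT-112. The part of these markers in the ERBB3, EGFR or ligand differences was not tested.

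Against the parental lines fewer members were called. In RT-112 CD44 Low against parental 3 of 7 were, where 3.2% of all genes tested were: AREG fell by 0.998 (SE 0.20, adjusted p = 0.0188), EGFR fell by 0.47 (SE 0.12, adjusted p = 0.0486) and ERBB3 rose by 0.42 (SE 0.10, adjusted p = 0.0377). The EGFR call was lost without parental replicate 1, 2 or 3 (0.143, 0.199 and 0.105) or CD44 Low replicate 1 or 2 (0.210 and 0.171), and the ERBB3 call without the same libraries (0.142, 0.112, 0.0740, 0.180 and 0.0809). AREG was lost without parental replicate 1, 2 or 3 (0.0696, 0.0739 and 0.0650) or CD44 Low replicate 1 (0.0941). ERBB2 was separate between these groups and at 0.24 did not pass (SE 0.09, adjusted p = 0.146). In J82 CD44 Low against parental 1 of 8 was called, where 5.34% of all genes tested were: ERBB3 fell by 0.54 (SE 0.14, adjusted p = 0.0386). That call was lost whichever library was left out (adjusted p 0.104, 0.150 and 0.116 without parental replicate 1, 2 or 3, and 0.130, 0.0509 and 0.0647 without CD44 Low replicate 1, 2 or 3).

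RT-112 CD44 High against parental called 1 of 7 members, where 0.511% of all genes tested were. HBEGF was 2.13-fold higher (log2 1.09, SE 0.19, adjusted p = 0.0216), and AREG, separate between the groups at 1.78-fold higher, did not pass (log2 0.83, SE 0.19, adjusted p = 0.0888). HBEGF lost its call without parental replicate 2 or 3 (0.179 and 0.164) or CD44 High replicate 1 or 2 (0.122 and 0.0673), and AREG gained one without CD44 High replicate 2 (0.0381). RT-112 CD44v6 against parental called 2 of 7, where 0.614% of all genes tested were. HBEGF was 2.33-fold higher (log2 1.22, SE 0.19, adjusted p = 0.0105) and AREG 2.04-fold higher (log2 1.03, SE 0.19, adjusted p = 0.0300). Without parental replicate 2 or 3 or CD44v6 replicate 1 HBEGF was lost (0.0838, 0.0766 and 0.0629). AREG was lost without parental replicate 1, 2 or 3 (0.117, 0.154 and 0.118) or CD44v6 replicate 1 or 2 (0.142 and 0.0616). These 3 RT-112 comparisons share the parental libraries, which had the lowest HBEGF levels of the line in 2 of 3 replicates.

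In J82 neither high-CD44 group had a called member against parental. For CD44 High edgeR called 0 of 8, where 2.94% of all genes tested were called, with 3 members at an unadjusted p under 0.05 (EREG, HBEGF and TGFA) and 1 called by DESeq2 (HBEGF, adjusted p = 0.0124). HBEGF had a log2 change of 1.24 there (SE 0.36, adjusted p = 0.0933 by edgeR), and passed without CD44 High replicate 1 (0.0451). For CD44v6 edgeR called 0 of 8, where 2.6% of all genes tested were, with 2 members at an unadjusted p under 0.05 (EGFR and HBEGF) and 0 by DESeq2. EGFR had a log2 change of 0.62 (SE 0.23, adjusted p = 0.165) and passed without CD44v6 replicate 3 (0.85, adjusted p = 0.0324).

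CD44v6 and CD44 High cells were compared directly in each line. EdgeR called 0 of 8 members in J82 and 0 of 7 in RT-112, and 0% of all genes tested in both. At an unadjusted p under 0.05 there was 1 member in J82, BTC, lower in CD44v6 without overlap (log2 −0.74, SE 0.26, adjusted p = 0.474), and 0 in RT-112. DESeq2 called 0 members in both lines. In RT-112 AREG differed by 0.19 (SE 0.19) and HBEGF by 0.13 (SE 0.18), about the size of their SE or less.

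The parental lines themselves differed in most members, as they did in most genes tested. Of 9 tested over all 24 libraries, 7 were called, where 62% of all 17438 genes tested were. Among the receptors ERBB3 was 6.31-fold higher in RT-112 (log2 difference of J82 from RT-112 −2.66, SE 0.12, adjusted p = 2.01e-14) and ERBB2 2.48-fold higher (−1.31, SE 0.13, adjusted p = 6.29e-09). EGFR did not pass (−0.11, SE 0.19, adjusted p = 0.648). Among the ligands HBEGF was 3.11-fold higher in RT-112 (−1.64, SE 0.32, adjusted p = 0.000121), and TGFA, with 1346 counts over the 3 RT-112 libraries against 14 over the J82 libraries, was higher by a ratio of 94.3 (95% exact interval 56.0 to 173, counting error only). AREG had 770 against 3 counts, a ratio of 252 (interval 85.9 to 1224), and EPGN had 51 against 0, at least 16.7-fold higher against the floor of 3 counts over the group. BTC was the only called member higher in J82, with 202 against 17 counts, a ratio of 12.1 (interval 7.38 to 21.2, edgeR adjusted p = 7.07e-05). EREG, with 38 against 10 counts, did not pass (log2 1.87, SE 1.03, adjusted p = 0.121).

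Whether a member changed differently in the 2 lines was tested as the J82 change minus the RT-112 change. For CD44 High against CD44 Low 1 of 9 members was called, where 10.7% of all genes tested were. This was ERBB3, with a difference of 1.06 (SE 0.16, edgeR adjusted p = 0.000187). For CD44v6 against CD44 Low ERBB3 was again the 1 member called, at 0.89 (SE 0.16, adjusted p = 0.00149), where 7.52% of all genes tested were; the 2 tests share the CD44 Low libraries of both lines. Both ERBB3 calls held with any 1 of 12 libraries left out. EGFR, called in RT-112 and not in J82, differed by −0.84 (SE 0.27) and narrowly missed the threshold for CD44 High against CD44 Low (adjusted p = 0.0521). It passed without J82 CD44 Low replicate 3 (0.0289) or RT-112 CD44 Low replicate 3 (0.0303). The EGFR difference also passed with upper-quartile scaling (0.0470), with a mean of at least 50 counts (0.0406) and by DESeq2 (0.0250). TGFA differed by 1.45 (SE 0.50, adjusted p = 0.0668) and passed without J82 CD44 Low replicate 1 (0.0261) or J82 CD44 High replicate 3 (0.0417). By DESeq2 TGFA passed too (0.0449). BTC passed without RT-112 CD44 Low replicate 3 (adjusted p = 0.0454, against 0.347 with it). For CD44v6 against CD44 Low the EGFR difference was −0.45 (SE 0.27, adjusted p = 0.357), and −0.75 (adjusted p = 0.0258) without J82 CD44v6 replicate 2. The AREG and HBEGF differences between the lines did not pass in either comparison (adjusted p 0.297 to 0.884). For CD44v6 against parental edgeR called 0 members, where 0.138% of all genes tested were called, with 1 (TGFA) at an unadjusted p under 0.05 and 0 by DESeq2.

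Levels per kilobase allow the members to be set beside each other. CPM was divided by the length of the longest protein-coding transcript (GENCODE 29, from 1196 bases for EPGN to 9821 for EGFR), since the authors' transcript models are not given in the sources used here. On this scale the 3 receptors summed to 24.3 to 33.0 CPM per kb in the 4 J82 groups and 47.0 to 51.4 in the 4 RT-112 groups. The sum thus stayed within a narrow range in RT-112 while its makeup differed: EGFR was 35.1% ± 1.05 of it in parental, 23.8% ± 4.35 in CD44 Low, 41.4% ± 3.98 in CD44 High and 39.7% ± 1.54 in CD44v6 (SD, n = 3). ERBB3 was 28.5% ± 1.29, 35.8% ± 2.39, 25.9% ± 3.10 and 27.0% ± 1.77 of it in the same order. In J82 EGFR was the main receptor throughout, 62.9% to 70.4%, and ERBB3 was 5.22% to 8.75%.

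The 6 ligands summed to 4.61 ± 0.494 CPM per kb in J82 parental, 6.15 ± 2.38 in CD44 Low, 10.1 ± 3.92 in CD44 High and 7.47 ± 2.20 in CD44v6. In RT-112 the sums were 26.0 ± 1.47, 22.7 ± 2.54, 47.1 ± 0.633 and 52.8 ± 6.53 in the same order, with CD44 High and CD44v6 above every parental and CD44 Low library. HBEGF made up most of the J82 sum (68.6% to 78.9% by group mean) and BTC was next (13% to 26.4%). In RT-112 AREG, HBEGF and TGFA shared it: AREG was 39.3% ± 2.91 in parental, 23.4% ± 5.93 in CD44 Low, 38.3% ± 7.97 in CD44 High and 40.2% ± 3.86 in CD44v6. HBEGF led in the 3 derived groups, at 52.0% ± 4.18 in CD44 Low, 45.0% ± 9.08 in CD44 High and 44.9% ± 3.93 in CD44v6. In parental it was 37.8% ± 6.41, near AREG, and the order of these 2 turns with the union of all exons as length (38.0% against 37.5% for AREG). By the longest coding transcript TGFA was 19.7% ± 2.76 in parental, 21.1% ± 4.13 in CD44 Low, 13.7% ± 0.728 in CD44 High and 12.3% ± 1.91 in CD44v6. With the union of all exons as length the RT-112 sums were 20.5, 18.1, 36.9 and 41.3 CPM per kb, the same order of groups. No test was made on these sums.

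**Figure D3:**
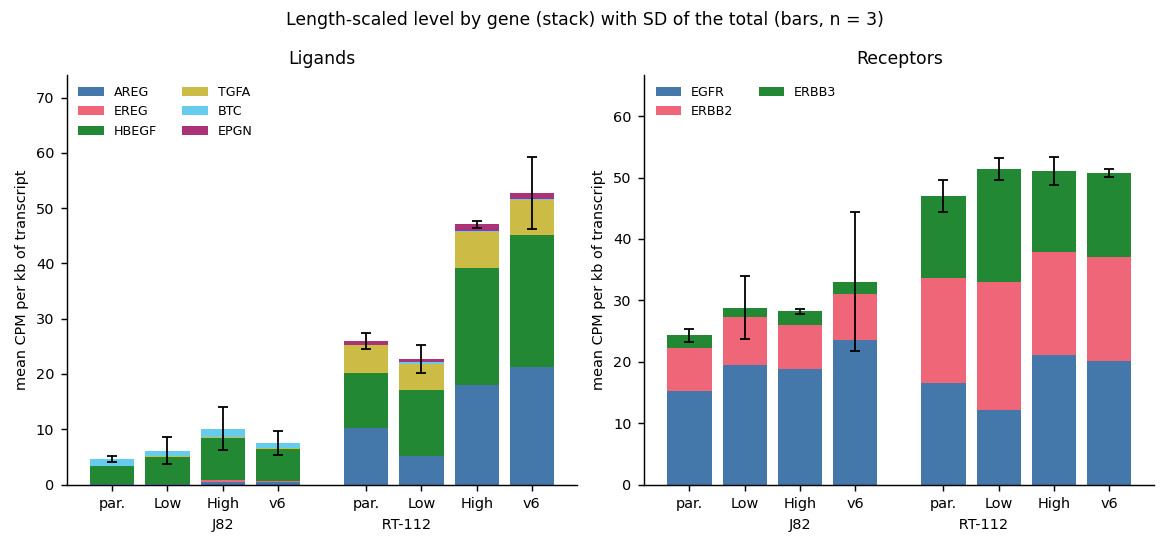
Mean CPM per kb of transcript of the 6 ligands (left) and 3 receptors (right), stacked by gene for the parental (par.), CD44 Low, CD44 High and CD44v6 groups of J82 and RT-112, with the SD of the summed level over 3 libraries. In RT-112 the ligand stack is about 47.1 in CD44 High and 52.8 in CD44v6 against 22.7 in CD44 Low, while the receptor stack stays between 47.0 and 51.4.

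Other genes of the pathway were read from 7 lists for CD44 High against CD44 Low, with edgeR's adjusted p over all genes. Among the other ERBB receptors and ligands (ERBB4, EGF, NRG1, NRG2, NRG3, NRG4), 2 of 2 tested rose in J82, and in RT-112 0 of 4 tested rose and 1 fell. Those in J82 were the neuregulins NRG1 (1.38, SE 0.12, adjusted p = 6.82e-06) and NRG2 (1.63, SE 0.40, adjusted p = 0.0151), and the one in RT-112 was NRG4 (−0.65, SE 0.17, adjusted p = 0.0207). In this comparison 15.7% of all genes tested were called in J82 and 16% in RT-112, and the counts of the lists are to be read against these shares. NRG1, a ligand of ERBB3 that is named here after its values were seen, was at 115, 114 and 115 CPM in J82 parental libraries, 70.6, 69.1 and 55.1 in CD44 Low, 171, 173 and 163 in CD44 High, and 155, 190 and 139 in CD44v6. In RT-112 its group means were 2.48 to 5.08 CPM and it did not pass (−0.97, adjusted p = 0.263, or 0.0315 without RT-112 CD44 High replicate 3). The NRG1 change differed between the lines by 2.36 (SE 0.51, adjusted p = 0.00460). ERBB4, the other neuregulin receptor, was too low to be tested in J82 alone, with 24 counts over the 3 CD44 Low libraries and 1 over CD44 High, against 47 and 87 in RT-112. Its difference between the lines passed (−5.40, SE 1.02, adjusted p = 0.00156), and that fitted value rests on the near absence of counts in J82 CD44 High. NRG2 lost its call without J82 CD44 Low replicate 1 or 2 or CD44 High replicate 2 (0.0661, 0.0577 and 0.0655). NRG4 lost its own without RT-112 CD44 Low replicate 1 or 3 or CD44 High replicate 1 (0.0621, 0.0713 and 0.0689).

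The growth factor response list holds 16 genes known to be switched on by ERK signalling or to restrain it. In J82 7 rose and 1 fell, where 15.7% of all genes tested were called, with a list median of 0.84 against −0.02 over all genes tested. In RT-112 7 rose and 0 fell, where 16% were called, with a median of 0.36 against 0.02. Called in both lines were FOSL1 (an AP-1 subunit; 0.95 in J82 and 1.499 in RT-112), DUSP6 (an ERK phosphatase; 1.47 and 1.08), SPRY4 (an inhibitor of receptor signalling; 2.18 and 0.88), the ETS factors ETV4 (1.07 and 0.46) and ETV5 (1.14 and 0.51), and CCND1 (cyclin D1; 1.60 and 0.32). The changes of ETV4, ETV5 and CCND1 were larger in J82, by 0.64 (adjusted p = 0.0238), 0.66 (adjusted p = 0.00999) and 1.31 (adjusted p = 1.2e-07). The ETV4 difference was lost in 5 of 12 fits that left out 1 library: J82 CD44 Low replicate 2 (0.0507), J82 CD44 High replicate 1 or 2 (0.0658 and 0.0562), RT-112 CD44 Low replicate 1 (0.0522) or RT-112 CD44 High replicate 1 (0.0501). DUSP6 and ETV4 kept their calls in both lines with any 1 library left out. FOSL1 in J82 was lost without CD44 Low replicate 1 or 2 (0.173 and 0.132) or CD44 High replicate 2 or 3 (0.0805 and 0.176). In RT-112 SPRY4 and CCND1 were lost without CD44 Low replicate 1 (0.0744 and 0.0581) or CD44 High replicate 1 (0.0783 and 0.0770), CCND1 also without CD44 Low replicate 2 (0.0702), and ETV5 without CD44 High replicate 1 (0.0515).

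Receptor attenuation genes, which act by degrading or inhibiting the receptors, had 2 of 13 tested rise, 3 fall and 8 not pass in J82, where 15.7% of all genes were called. In RT-112 4 of 14 rose, 0 fell and 10 did not pass, where 16% of all genes were called. ERRFI1, an inhibitor that binds the EGFR kinase, rose in both, by 1.81 in J82 (SE 0.20, adjusted p = 5.35e-05) and 0.97 in RT-112 (SE 0.10, adjusted p = 0.000161), a difference of 0.87 between the lines (SE 0.22, adjusted p = 0.0145). Both ERRFI1 calls held with any 1 library left out. Among 9 genes of ligand release, the proteases that shed the ligands and their regulators, 2 rose and 1 fell in J82 and 0 rose and 1 fell in RT-112, beside the same 15.7% and 16%. TIMP3, a metalloprotease inhibitor, rose by 0.91 in J82 (SE 0.10, adjusted p = 5.28e-05). ADAM10, a sheddase, fell by 0.67 in RT-112 (SE 0.19, adjusted p = 0.0278), a call lost without CD44 Low replicate 1, 2 or 3 (0.0777, 0.0634 and 0.0613) or CD44 High replicate 1 (0.0728).

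Of 14 adaptors and proximal signalling genes, 1 rose and 2 fell in each line, where 15.7% of all genes were called in J82 and 16% in RT-112, and they were the same 3. HRAS rose by 0.37 in both lines (adjusted p 0.0131 in J82 and 0.0218 in RT-112). SOS2, a RAS activator, was at −0.46 in J82 and −0.49 in RT-112 (0.0253 and 0.04996), and PIK3R1, the regulatory subunit of PI3 kinase, at −0.40 and −0.73 (0.0482 and 0.00498). SOS2 in RT-112 and PIK3R1 in J82 were called in only 5 of 8 other settings. The PIK3R1 call in RT-112 held with any 1 library left out. The other calls held in 5 (HRAS), 3 (SOS2) and 1 (PIK3R1) of 6 such fits in J82, and in 2 (HRAS) and 1 (SOS2) of 6 in RT-112. With 1 library left out the highest adjusted p was 0.0631 for HRAS, 0.0891 for SOS2 and 0.194 for PIK3R1 in J82 (each without CD44 High replicate 2, except PIK3R1, without CD44 Low replicate 1). In RT-112 it was 0.0882 for HRAS without CD44 Low replicate 1 and 0.139 for SOS2 without CD44 High replicate 1. Neighbouring genes were read too. Of the genes next to AREG, EREG, BTC and EPGN on chromosome 4, 2 of 9 tested rose in J82. In RT-112 0 of 6 tested were called. Those in J82 were PARM1 by 4.64 (edgeR adjusted p = 0.000526) and the chemokine gene CXCL1, named after its values were seen, by 2.15 (0.00235). With 1 library left out, PARM1 had a value in only 5 fits. Where it had none, PARM1 failed the filter or a compared group had no counts, so the size of its change is uncertain. Next to ERBB2, 0 of 6 tested were called in either line.

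**Figure D4:**
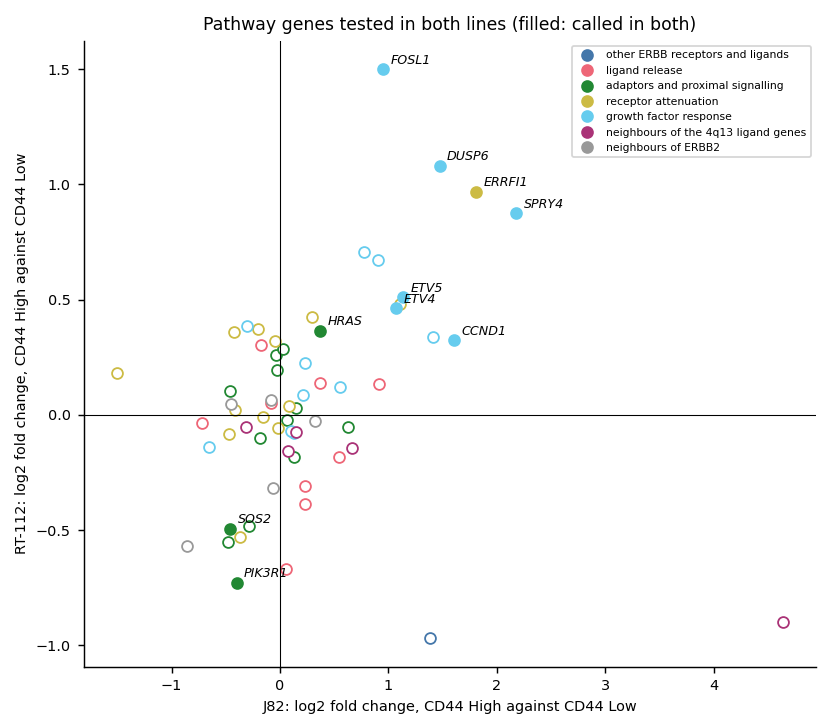
Log2 fold change of CD44 High against CD44 Low in J82 (horizontal) and RT-112 (vertical) for the 63 list genes tested in both lines, 1 point a gene, coloured by list and filled where called in both. The 10 filled genes lie on the same side of 0 in both lines, 8 higher and 2 lower, and the open points at the lower right are NRG1 and, farthest right, PARM1.

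The genes whose levels followed each member most closely were named from 8732 genes, by Pearson's r over 24 libraries after each line's mean was removed. This is a description, since all libraries share the scaling and the group structure. EGFR was followed most closely by CDK12 (r = 0.93), SLC7A1 (0.93) and YAP1 (0.91). For ERBB2 these were ABCC3 (0.88), PABPC4 (0.85) and MAN2B1 (0.84). ERBB3 was nearest to PGRMC1 (0.89), JAK1 (0.88) and CAPG (0.86). HBEGF was nearest to TNFAIP3 (0.91), IER3 (0.88) and KLF10 (0.87). TGFA, with at most 19 counts in a J82 library, was nearest to EFHD2 (0.86), FZD7 (0.82) and ST3GAL2 (0.82). Within the 12 libraries of J82 and of RT-112 these were 0.89 and 0.76 for EFHD2, 0.86 and 0.58 for FZD7, and 0.86 and 0.50 for ST3GAL2. AREG was mostly at 0 in J82, and EIF1AD (0.73) and HROB (0.72) were among the genes nearest to it.

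Overlapping genes could add reads where counting did not use strand, which is not stated. In GENCODE 29 EGFR overlaps EGFR-AS1 on the other strand, which had 0 counts in every library. ERBB2 overlaps MIEN1 and PGAP3 on the other strand, and neither was called in CD44 High against CD44 Low. ERBB3 and TGFA each overlap a non-coding gene on their own strand.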

How the data were processed

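Total RNA was column-purified and sent out for sequencing, per the labels' protocols. Values are raw read counts by gene symbol, deposited as 1 table of 24 libraries and not normalized. HISAT2, StringTie and GRCh37 are named without versions or roles in the submitters' processing notes. The annotation, the counting program and the use of strand are not given in the sources used here. Columns were matched to samples by title, and 0 columns were left out.

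Counts were fitted in R 4.3.3 with edgeR 4.0.16 (filterByExpr, TMM scaling, glmQLFit, glmQLFTest), with group as the only term and two-sided tests. Each line was fitted on its 12 libraries, giving 15951 genes and a biological coefficient of variation of 0.183 in J82, and 15645 genes and 0.152 in RT-112. The parental lines and the differences between lines were fitted on all 24 libraries (17438 genes, 0.170). P-values were adjusted by the Benjamini-Hochberg method over all genes of a fit. SE is the log2 fold change divided by the square root of F. CPM levels used TMM factors over all libraries, and log2 CPM for likeness used a prior count of 2. The fits were tested on simulated data.

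Members and lists were chosen with earlier results of these data known. Named were the members, CD44, in the CD44 High and CD44 Low contrast the list genes called in both lines in 1 direction, or with the largest called change of a list in a line, and the 3 genes most like each member tested in both lines, with a mean log2 CPM of at least 3 in each line. Of the genes this rule names, 1 is not reported here. Promoters came from RefSeq (GRCh38.p14), which matched 8 of 9 members, and intervals are exact at 95%. At 16752825 to 24419670 counts per library, counting error weighs most on members with few counts. Alternatives were other scaling, other filters, DESeq2 1.42.0, a replicate block, fits of 6 or 24 libraries, and each library left out. Figures used Python 3.11.15 and matplotlib 3.10.9.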

Additional observations from a re-analysis of the deposited data

Results flagged for a closer look

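The ERBB3 change in CD44 High against CD44 Low differed between the lines by 1.06 on the log2 scale (SE 0.16, edgeR adjusted p = 0.000187): ERBB3 was higher in CD44 High in J82 and lower in RT-112, with no overlap between the groups in either line. For CD44v6 against CD44 Low the difference between the lines was 0.89 (SE 0.16, adjusted p = 0.00149), also with opposite directions and no overlap. Each is singled out because the same contrast gave a different change in the 2 cell lines. The 2 values share the CD44 Low libraries.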

How the results depend on the processing

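Of 29 called changes of members, 16 were called under every other setting, 15 in every fit that left out 1 library and 14 under both, and 0 changed sign. EPGN between the parental lines is not among the 29, since its J82 libraries were all at 0. Of 93 changes not called, 12 were called under another setting and 8 in a fit without 1 library. With upper-quartile scaling the members called fell to 0 in J82 CD44v6 against CD44 Low, and 2 differed between the lines in CD44 High against CD44 Low. With no filter, which adjusts over more genes, they were 0 in J82 CD44 Low against parental, 1 for J82 CD44 High against CD44 Low, 0 in J82 CD44v6 against CD44 Low, 1 in RT-112 CD44 Low against parental and 1 in RT-112 CD44v6 against parental. With a mean of at least 50 counts they were 1 in J82 for CD44 High against CD44 Low, and 2 for the difference between lines in that comparison. DESeq2 called 1 in J82 CD44 High against parental, 2 in RT-112 CD44 High against parental and 3 for the line difference in CD44 High against CD44 Low. Fits of only the 6 libraries compared gave 2 in J82 CD44 High against parental, 0 in J82 CD44v6 against CD44 Low, 0 in RT-112 CD44 High against parental and 3 for RT-112 CD44 High against CD44 Low. Fits of all 24 libraries gave 2 in J82 CD44 High against parental, 2 in J82 CD44v6 against CD44 Low, 1 in RT-112 CD44 Low against parental, 0 in RT-112 CD44 High against parental, 1 in RT-112 CD44v6 against parental and 3 for RT-112 CD44 High against CD44 Low. The causes of these changes in calls were not tested.

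With 1 library left out the members called ranged from 0 to 0 in J82 CD44 Low against parental, 0 to 1 in J82 CD44 High and 0 to 1 in J82 CD44v6 against parental, 1 to 2 in J82 CD44 High and 0 to 1 in J82 CD44v6 against CD44 Low. Over all genes the calls ranged in the same order from 312 to 965, 122 to 349, 32 to 1120, 1578 to 2278 and 1024 to 1695. The ranges of members are to be read against those over all genes. In RT-112 the members called ranged from 0 to 3 in CD44 Low, 0 to 1 in CD44 High and 0 to 2 in CD44v6 against parental, and from 4 to 6 in CD44 High and 3 to 5 in CD44v6 against CD44 Low. Over all genes the calls there ranged in the same order from 142 to 798, 18 to 196, 25 to 55, 1230 to 3091 and 1004 to 2239. Between the parental lines 7 to 7 members were called, beside 9999 to 10146 of all genes. For the difference between lines the members called ranged from 1 to 3 in CD44 High and 1 to 2 in CD44v6 against CD44 Low, and 0 to 0 in CD44v6 against parental. Over all genes these ranges were 1229 to 2040, 766 to 1794 and 3 to 217. CD44v6 against CD44 High gave 0 to 0 members in both lines, beside 0 to 2 of all genes in J82 and 0 to 431 in RT-112.

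Replicates carry the same numbers 1 to 3 in every group, and whether the numbers pair the samples was not settled. No comparison had a correlation over 0.1 for all 3 numbers, a rule that cannot exclude a pairing. Among the derived J82 groups all were positive: 0.0315, 0.1004 and 0.206 for CD44 High against CD44 Low, 0.0462, 0.0692 and 0.336 for CD44v6 against CD44 Low, and 0.0968, 0.102 and 0.228 for CD44v6 against CD44 High. In RT-112 the correlations ran from −0.266 to 0.0644. With the replicate number as a block, the members called were 2 in J82 CD44 High against parental, 1 in J82 CD44v6 against parental, 0 in J82 CD44v6 against CD44 Low, 1 in RT-112 CD44 Low against parental and 1 in RT-112 CD44v6 against parental. They were 4 against 6 for RT-112 CD44 High against CD44 Low, with ERBB2 (0.0512) and TGFA (0.0564) lost, and 3 against 2 for J82 CD44 High against CD44 Low, with HBEGF gained (0.0347). Over all genes the block moved the count in RT-112 CD44 Low against parental from 500 to 303, and in RT-112 CD44v6 against parental from 96 to 58.

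Over all genes, DESeq2 called 1488 against 852 by edgeR in J82 CD44 Low against parental, 910 against 469 in J82 CD44 High and 1061 against 415 in J82 CD44v6 against parental, 985 against 500, 292 against 80 and 587 against 96 in the same comparisons of RT-112, 74 against 0 and 2 against 0 for CD44v6 against CD44 High in J82 and RT-112, and 2095 against 1312 and 463 against 24 for the line differences in CD44v6 against CD44 Low and against parental. Fits of 6 libraries gave 1 against 0 for J82 CD44v6 against CD44 High, 1501, 1350 and 148 in those J82 comparisons with parental, 636 in J82 CD44v6 against CD44 Low, 1126, 43 and 953 in RT-112 and 1171 for RT-112 CD44 High against CD44 Low. Fits of 24 gave 5 for J82 CD44v6 against CD44 High, 740 in J82 CD44v6 and 237 in RT-112 CD44v6 against parental. With no filter there were 253 in J82 CD44v6 and 60 in RT-112 CD44v6 against parental. Summing AREG with its copy was not run, since no separate row for the copy was used. Counts under about 20 per library limit EREG, TGFA and AREG in J82 and EREG, BTC and EPGN in RT-112.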
